A study of Rattus norvegicus with 3 samples.

Results

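A set of 10 genes of axonal mRNA transport and RNA granules was read out in the fluid that remains when spinal cord tissue is digested with a cold-active protease and its cells are spun down. They were taken by symbol from the authors' table as FMR1, FXR1, FXR2, STAU1, STAU2, G3BP1, KHSRP, ELAVL1, ELAVL4 and MSI2, and 8 of the 10 have an entry among the 12758 symbols listed. FXR1 and STAU2 have none under their symbol, so nothing is said of their level. Of the named protein-coding genes of the rat RefSeq annotation (GRCr8), 56.4% have an entry in the table.

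The animals were female Sprague Dawley rats, 3 months old, in which the spine was opened by laminectomy at T9. Controls had the laminectomy alone (No-SCI), and injured animals also received a contusion of the exposed cord (SCI). After 24 h a short piece of cord just rostral to the injury site was taken. The sample labels hold 2 No-SCI libraries and 1 SCI library, while the study's methods state 2 animals per condition. The table gives 1 FPKM value (fragments counted on a transcript, relative to its length and to the reads of the library) for No-SCI and 1 for SCI, each the authors' group value. No value per library and no read count is given, so the depth behind each value and its spread between animals are unknown. No replicate check of any difference was possible, and no SD, n or p is given. Changes are stated as log2 ratios, SCI over No-SCI, and a change counted as past 2-fold is a size and not a test.

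Messenger RNAs do not travel along an axon as free molecules. RNA-binding proteins recognise elements in the mRNA, pack it with its partners into granules that motors carry along microtubules, and hold translation in check until a local signal releases it. Such granules share proteins with stress granules, which form when translation initiation is blocked, and with processing bodies, where mRNA is stored or decapped. The values here are those of the mRNAs that encode these proteins, not of the proteins or their granules.

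Of the 8 listed genes, 7 differed by less than 2-fold between the groups. ELAVL4, which encodes the neuronal HuD protein, was the exception, at 8.39 FPKM in No-SCI and 3.31 FPKM in SCI. That is 2.54-fold lower, a log2 ratio of −1.34. Thus 1 of 8 members was lower by at least 2-fold, where 12.1% of all 12771 entries were, and 0 of 8 were higher by as much, where 7.96% of entries were. The share of members that were lower lies near that of the whole table and is no property of this group. At 1.5-fold or more, 2 members (STAU1 and ELAVL4) were lower beside 26.3% of entries, and 0 were higher beside 16.9%. At 1.3-fold or more, 3 were lower (FMR1 too) beside 35.7% of entries, and 2 (ELAVL1 and KHSRP) were higher beside 24.6%. The study's methods set 1.3-fold as a minimum together with a false discovery rate limit, which was not applied here. The summed level of the 8 genes was 412 FPKM in No-SCI and 415 FPKM in SCI. Their median log2 ratio was 0.04 beside −0.12 over all entries. Their mean was −0.14 with ELAVL4 and 0.04 without it.

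**Figure D1:**
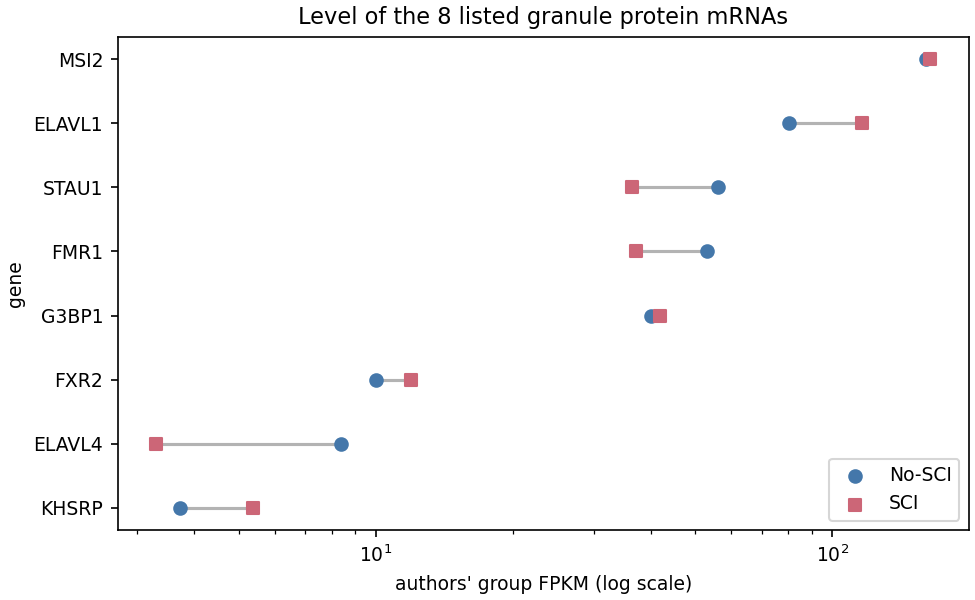
Authors' group FPKM (log axis) of the 8 listed genes in No-SCI (circles) and SCI (squares), 1 value per group with no error available. The grey line between the symbols is longest for ELAVL4, at 8.39 FPKM in No-SCI and 3.31 in SCI, while the symbols of MSI2 and G3BP1 overlap.

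In order of FPKM, a scale per transcript length, the No-SCI levels ran from MSI2 with 161 through ELAVL1 with 80.2, STAU1 with 56.1, FMR1 with 53.04, G3BP1 with 40.1, FXR2 with 10.01 and ELAVL4 with 8.39 to KHSRP with 3.73. MSI2 was thus 43.1 times as abundant as KHSRP. With no spread between animals, neighbours in this order, such as STAU1 and FMR1 with a ratio of 1.06, cannot be told apart. In SCI the order was the same for MSI2, ELAVL1, FMR1 and FXR2, whereas G3BP1 took place 3 and STAU1 place 5, and ELAVL4 was the lowest. For 5 of the 8 genes (FMR1, FXR2, ELAVL1, ELAVL4 and MSI2) at least 1 value carries 7 significant digits, as do 58.6% of all entries. STAU1, G3BP1 and KHSRP carry 6 at most. How the values with more digits were made is not given in the sources used here, which limits a comparison of levels between genes.

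FMR1 and FXR2 encode paralogous polyribosome-associated proteins. FMRP, the product of FMR1, represses translation of its mRNA targets and is lost in fragile X syndrome. FMR1 stood at 53.04 FPKM in No-SCI (percentile 74.7 of all entries) and 37.04 FPKM in SCI, a log2 ratio of −0.52. FXR2 was at 10.01 FPKM in No-SCI and 11.9 FPKM in SCI, a log2 ratio of 0.26. FMR1 was therefore 5.30 times as abundant as FXR2 in No-SCI and 3.10 times in SCI. CYFIP1 and CYFIP2 encode partners of FMRP that also belong to the WAVE complex, a regulator of actin, and both were lower in SCI. CYFIP1 was at 46.5 and 28.0 FPKM (log2 ratio −0.73), and CYFIP2 at 11.3 and 4.09 FPKM (log2 ratio −1.47, past 2-fold).

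STAU1 encodes a double-stranded RNA-binding protein that accompanies mRNAs along microtubules and can also direct them to decay. It had the second lowest ratio of the members, with 56.1 FPKM in No-SCI (percentile 75.6) and 36.3 FPKM in SCI, 1.55-fold lower or a log2 ratio of −0.63. STAU1 and FMR1 had close values in both groups, and the ratio of STAU1 to FMR1 was 1.06 in No-SCI and 0.981 in SCI.

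G3BP1 nucleates stress granules, and in axons its granules hold mRNAs back from translation. Its level was 40.1 FPKM in No-SCI and 41.9 FPKM in SCI, a log2 ratio of 0.06 and 1.04-fold. The paralog G3BP2 was the more abundant of the pair, with 126 FPKM in No-SCI and 88.2 FPKM in SCI, a log2 ratio of −0.52. Its excess over G3BP1 was 3.15-fold in No-SCI and 2.11-fold in SCI.

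KHSRP and the ELAVL (Hu) proteins bind AU-rich elements, which mark mRNAs for rapid turnover. KHSRP recruits decay enzymes, whereas the Hu proteins stabilise their targets. ELAVL1, which encodes the widely expressed HuR, was at 80.2 FPKM in No-SCI and 116 FPKM in SCI, a log2 ratio of 0.53. KHSRP was at 3.73 and 5.37 FPKM, also a log2 ratio of 0.53. These were the highest ratios among the members, at percentiles 81.4 and 81.2 of all entries, and ELAVL1 was at 21.5 times the level of KHSRP in No-SCI and 21.6 times in SCI.

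ELAVL4 had the lowest ratio of the members. Its log2 ratio of −1.34 lies at percentile 5.59 of all entries, and its rank by level was 8621 in No-SCI and 10926 in SCI, of 12771. ELAVL1 was 9.56 times as abundant as ELAVL4 in No-SCI and 35.1 times in SCI. The other neuronal Hu genes were also lower in SCI, each by less than 2-fold. ELAVL3 stood at 32.9 and 24.98 FPKM (log2 ratio −0.40), and ELAVL2 at 3.16 and 1.98 FPKM (log2 ratio −0.67). ELAVL2, ELAVL3 and ELAVL4 together summed to 44.4 FPKM in No-SCI and 30.3 FPKM in SCI, so that the share of ELAVL1 in the family was 64.4% and 79.3%. ELAVL3, rather than ELAVL4, was the most abundant neuronal Hu gene in both groups.

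**Figure D2:**
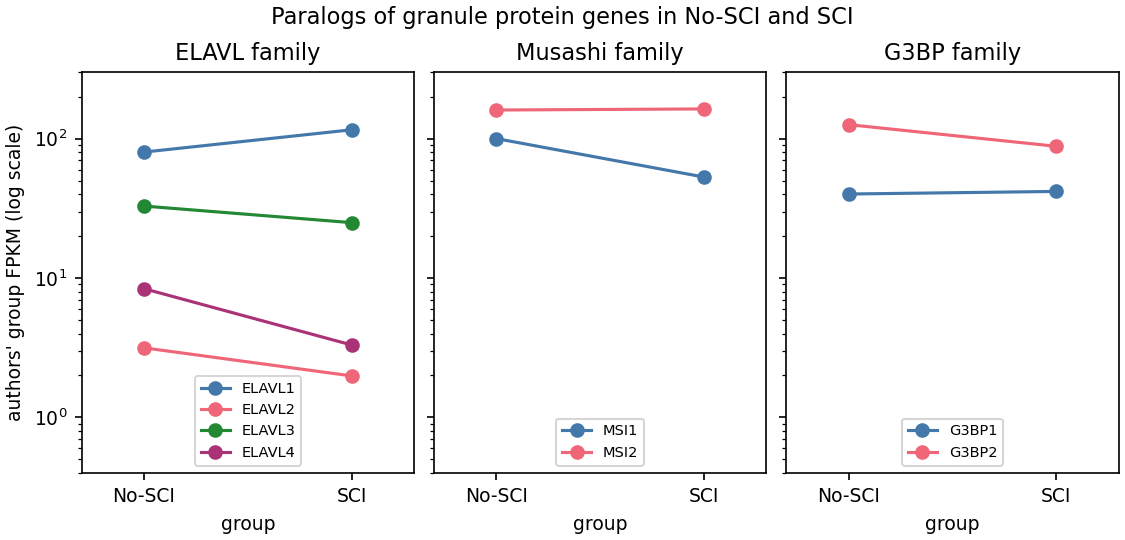
Authors' group FPKM (log axis) in No-SCI and SCI of the ELAVL, Musashi and G3BP families, 1 point per gene and group with no error available. ELAVL2, ELAVL3 and ELAVL4 slope down while ELAVL1 slopes up, and MSI1 and G3BP2 slope down while MSI2 and G3BP1 are level.

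Markers of whole cell types also differed between the groups. A list of 13 neuronal markers, 11 of them listed, summed to 621 FPKM in No-SCI and 335 FPKM in SCI. Of the 11, 10 were lower and 4 (36.4%) lower by at least 2-fold, where 12.1% of all entries were. THY1 was the most abundant, and SNAP25 and NEFM are absent from the table. The neuronal list's median log2 ratio of −0.44 stands beside −0.40 to −1.34 for the neuronal Hu genes, and its part in their values was not tested. Oligodendrocyte markers (11 of 12 listed, MBP absent) summed to 88454 and 48298 FPKM, a log2 ratio of −0.87. All 11 were lower in SCI, 8 of them by at least 2-fold, and their median log2 ratio was −1.62. Astrocyte markers (6 of 11 listed, with GFAP, AQP4, SLC1A3, S100B and ALDOC absent) summed to 14026 and 8916 FPKM. All 6 were lower, 5 of them by at least 2-fold, with a median log2 ratio of −1.36. The sums of both lists rest mostly on their most abundant genes. For oligodendrocytes these are MOBP (44200 and 27648 FPKM) and BCAS1 (36068.5 and 18311 FPKM). For astrocytes they are NDRG2 (8001 and 3228 FPKM) and GLUL (5858 and 5624 FPKM, log2 ratio −0.06). Markers of meningeal fibroblasts (9 of 9 listed) summed to 66.5 and 815 FPKM, and skeletal muscle markers (7 of 7) to 417 and 42.0 FPKM. Microglia and macrophage markers (11 of 11) summed to 1239 and 1415 FPKM, but the list was split, with 6 higher and 5 lower. Past 2-fold, 2 of them were higher and 3 lower, where 7.96% and 12.1% of all entries were. Endothelial markers (5 of 7, PECAM1 and TEK absent) summed to 26.1 and 31.5 FPKM. Of these 5, 2 were higher and 3 lower, with a median log2 ratio of −0.21. In such a bulk preparation, fewer cells or processes of a type and less of the RNA in each cannot be told apart.

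MSI2 encodes a Musashi RNA-binding protein that regulates translation. It was the most abundant member, at percentile 89.9 of all entries in No-SCI, with 161 FPKM in No-SCI and 164 FPKM in SCI (log2 ratio 0.03). The study reported no significant change of MSI2 after injury. MSI2 made up 39.0% of the summed FPKM of the 8 genes in No-SCI and 39.4% in SCI. Its paralog MSI1, a gene of neural precursors and astrocytes, was at 100.2 FPKM in No-SCI and 53.05 FPKM in SCI, a log2 ratio of −0.92. MSI2 was hence 1.60 times as abundant as MSI1 in No-SCI and 3.09 times in SCI.

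The paralogs of KHSRP in the FUBP family differed between themselves as well. FUBP1 was at 70.7 and 73.8 FPKM (log2 ratio 0.06) and FUBP3 at 26.7 and 17.4 FPKM (log2 ratio −0.62). Over the 6 paralogs of members, 5 were lower in SCI and 1 higher, none by 2-fold in the values as deposited. Their median log2 ratio was −0.57, lower than the −0.12 over all entries. With that median below 0, more entries of the table were lower than higher too.

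To set these values against genes of similar abundance, all entries were divided into 10 bins of equal number by the geometric mean of their group values. The log2 ratios of all 8 members lay between the 5th and the 95th percentile of their bin, and 4 of the 8 lay between the 25th and the 75th. For ELAVL4 the bin ran from −1.52 to 1.63 at those outer percentiles, so its ratio was toward the low end of, but inside, the range of 90% of entries at its level. ELAVL1, KHSRP, STAU1 and ELAVL4 were the members outside the middle range.

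**Figure D3:**
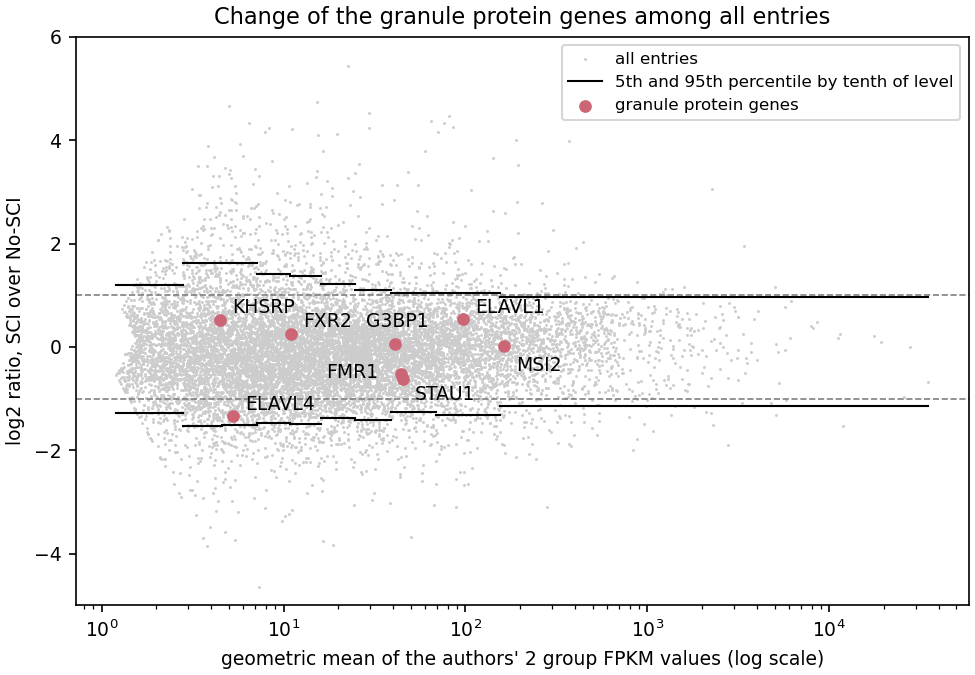
Log2 ratio (SCI over No-SCI) against the geometric mean of the authors' 2 group FPKM values (log axis) for all 12771 entries (grey), with the 8 members in red. Black steps mark the 5th and 95th percentile in each of 10 bins of level and dashed lines mark 2-fold, and ELAVL4 at −1.34 is the only member past a dashed line and lies above the lower step.

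Other genes of the same pathways were read from lists of 74 genes, 68 of them in the table, grouped by role. Past 2-fold, 3 of the 68 (4.41%) were lower and 1 (1.47%) was higher in SCI, where 12.1% and 7.96% of all entries were. The median log2 ratio of the 68 was −0.14, beside −0.12 over all entries. With that median below 0, more entries of the table were lower than higher, which bears on each count by direction below.

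Proteins that accompany mRNA in transport granules showed small differences, and 0 of 12 listed genes passed 2-fold (4 of the 16 are absent, IGF2BP1, IGF2BP3, PURA and SFPQ). IGF2BP1, the zipcode-binding protein of ACTB mRNA, is among those absent. HNRNPA2B1, a carrier of mRNAs in oligodendrocytes and neurons, was the most abundant with 600 FPKM in No-SCI and 719 FPKM in SCI. The log2 ratios ran from −0.44 for DDX1, an RNA helicase, to 0.45 for RBM4.

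Stress granule genes were more spread, although 0 of 14 passed 2-fold. YBX1, which packages mRNA in the cytoplasm, had the highest ratio, with 265 and 480 FPKM (log2 ratio 0.86). The list's median log2 ratio was −0.33, and that of G3BP1 was 0.06.

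Processing body and decay genes had 11 of 14 listed members higher in SCI and a median log2 ratio of 0.16. ZFP36L1, which like KHSRP promotes decay of mRNAs with AU-rich elements, was higher by at least 2-fold, with 9.05 and 21.04 FPKM (log2 ratio 1.22). That is 1 of 14 (7.14%), where 7.96% of all entries were higher by as much. LSM14A was the most abundant at 166 FPKM in No-SCI, and PATL1, a decapping factor, was the lowest in ratio at −0.90.

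Translational regulators had 11 of 15 listed genes lower in SCI and a median log2 ratio of −0.55, beside −0.12 over all entries. The 2 past 2-fold were CYFIP2 and AGO1, a microRNA effector at 21.8 and 9.53 FPKM (log2 ratio −1.20). That is 13.3% of the list, near the 12.1% of all entries that were lower by as much. PUM2, a repressor that binds Pumilio elements, was the most abundant with 230 FPKM in No-SCI and 128 FPKM in SCI, and EIF4EBP2, which holds the cap-binding protein inactive, had the highest ratio at 0.48.

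Motors and adaptors that carry granules had 10 of 13 genes lower and a median log2 ratio of −0.37, beside −0.12 over all entries. KIF5A, a neuronal kinesin heavy chain that the study also lists as an axonal marker, was lower by at least 2-fold (log2 ratio −1.24). That is 1 of 13 (7.69%), where 12.1% of all entries were lower by as much. KLC1, a kinesin light chain, was the most abundant with 3922 FPKM in No-SCI and 3151 FPKM in SCI, and ANXA11, which tethers granules to lysosomes, had the highest ratio at 0.74.

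**Figure D4:**
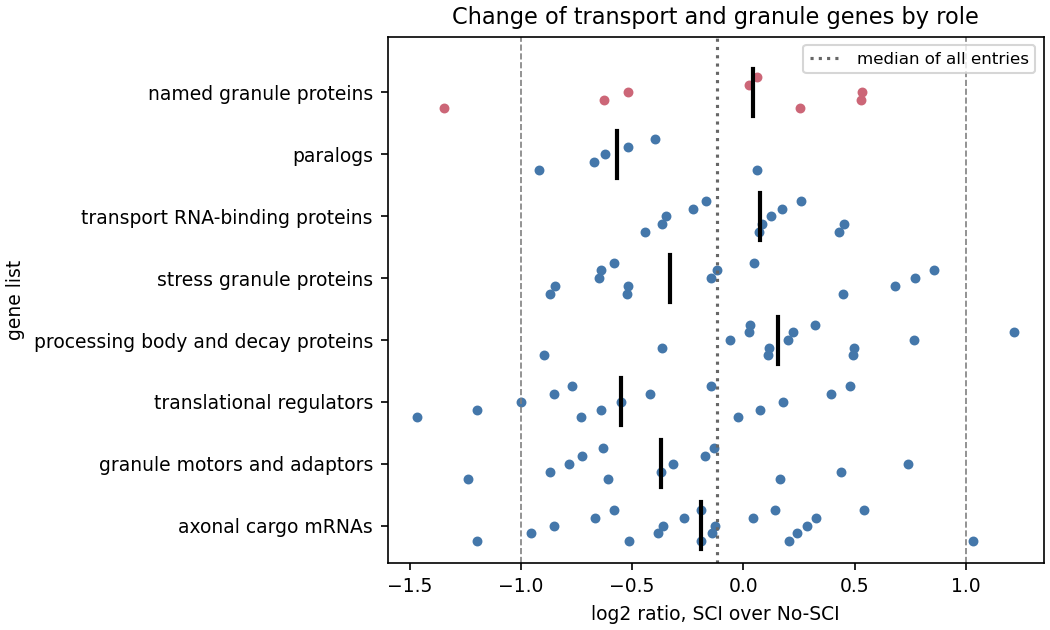
Log2 ratio (SCI over No-SCI) for each listed gene of the members (red), their paralogs, 5 role lists and the list drawn as axonal cargo mRNAs (blue). Each point is 1 gene, spread vertically only for legibility. Black bars are list medians, the dotted line is the median of all entries at −0.12 and the dashed lines are 2-fold, and few points lie past the dashed lines.

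The mRNAs listed here as granule cargo are not all established axonal cargo, and ARC is better known from dendrites. Their median level was 72.2 FPKM in No-SCI and 47.6 FPKM in SCI, beside 46.6 and 36.7 FPKM for the 8 granule protein genes. These medians fall on different genes in each group and do not measure a change. The summed cargo level was 21609 FPKM in No-SCI and 22714 FPKM in SCI. Of 22 such cargo mRNAs 21 are listed, 8 higher and 13 lower in SCI. Past 2-fold, 1 (4.76%) was higher and 1 (4.76%) lower, where 7.96% and 12.1% of all entries were. The median log2 ratio of the 21 was −0.19, beside −0.12 over all entries. ACTB, the classic cargo of the zipcode-binding protein, was the most abundant with 10547 FPKM in No-SCI and 12462 FPKM in SCI. GAP43, a growth cone protein whose mRNA is a target of both HuD and KHSRP, was at 1275 and 1406 FPKM (log2 ratio 0.14). The ratio of GAP43 to ELAVL4 was accordingly 152 in No-SCI and 425 in SCI, and that of GAP43 to KHSRP was 342 and 262. VIM, an intermediate filament mRNA that glia and fibroblasts also express, had the highest ratio at 1.03, and ARC, an activity-regulated gene, the lowest at −1.20.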

How the data were processed

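Stranded total RNA libraries were prepared from supernatant RNA after ribosomal RNA removal. Per the study's methods and the submitters' processing notes, the authors equalised read numbers by downsampling, used STAR 2.5.4b with the rn6 genome, and ran Cuffdiff 1.3.0 with upper quartile normalization. Deposited were its FPKM values, 1 per group. No value lies below 1, so low genes may understate a ratio. The authors' own fold changes, p-values and q-values, also in the table, were not used, and 0 value columns lacked a group.

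Log2 ratios were computed without a pseudocount, and every entry was counted as past 2-fold or not. Each member has 1 entry. Members and lists were chosen with earlier results of these data known. All members and paralogs were named, and in each pathway and cargo list the most abundant gene, both extremes of the ratio and every gene past 2-fold. A gene that this rule names is not reported here. Of the cell type markers, absent ones and the most abundant neuronal, oligodendrocyte and astrocyte ones were named. The alternatives were pseudocounts, scalings, fold limits, a minimum mean, means in place of medians and summed entries. No coordinates are given, since the RefSeq table is of another assembly. The fold step was tested on simulated data with large known changes and little noise. This checks the computation and says nothing of the spread between animals. Python 3.11.15, numpy 2.4.6, pandas 2.3.3 and matplotlib 3.10.9 were used.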

Additional observations from a re-analysis of the deposited data

How the results depend on the processing

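With a pseudocount of 1 or 0.1, with the median of all entries centred at 0, with totals or upper quartiles made equal and, chosen after the values were seen, subtracting 1 from every value, each of the 8 members kept the sign of its log2 ratio. ELAVL4 ran from −1.68 to −1.12 and stayed past 2-fold throughout, and no other member reached it. Centring moves every ratio up by 0.12, scaling to the same upper quartile by 0.10 and scaling to the same total by 0.05. Taking 1.5-fold or 1.3-fold in place of 2-fold gave 2 and 3 lower members and 0 and 2 higher ones. The mean log2 ratio of the members, −0.14, differs in sign from the median. Among the cargo mRNAs, 0 were lower by 2-fold with a pseudocount of 1 and 2 with 1 subtracted, and among the other pathway genes 5 with 1 subtracted. A minimum mean of 1 removed no member, and summing entries changed none. No paired analysis was possible because the table holds 1 value per group, and for the same reason no library could be left out. Depth and the spread between animals are unknown.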

Other observations

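CPEB1, which regulates translation through cytoplasmic polyadenylation, missed the 2-fold limit narrowly, at 96.2 FPKM in No-SCI and 48.2 FPKM in SCI.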
